A study of Mus musculus with 15 samples.

Results

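The genes described here were chosen by their RNA level, which had to be at most 0.5 of its starting value 6 h after auxin was added to O4AID ESCs, an embryonic stem cell (ESC) line that lives on a degradable form of OCT4. They were taken from the deposited table of TMM-normalized counts (counts scaled between libraries by the trimmed mean of M-values). A gene entered with a value of 50 or more at 0 h, where 1 read was worth 0.698, and a value at 6 h of at most 0.5 of that. Of 12744 genes at or above the level, 160 (1.26%) met the rule, and 11 of these, *Klf4* and *Esrrb* among them, were on a list of 20 genes left out by name. The 149 that remain, of 16772 genes in the table, included the DNA demethylase gene *Tet2*, the Nodal co-receptor gene *Tdgf1*, the Polycomb gene *Phc1* and the FGF feedback inhibitor gene *Spry2*. The genes were selected on the 0 h and 6 h auxin libraries, so the values of those 2 libraries are a description and carry no test.

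OCT4, the product of *Pou5f1*, is a POU transcription factor that binds DNA with SOX2 and holds mouse ESCs in the naive pluripotent state. Together with NANOG, KLF and ESRRB proteins it forms a network of factors that maintain their own and each other's genes. When OCT4 is lost, mouse ESCs are known to leave self-renewal and to take on trophectoderm-like features, and with an auxin degron the protein itself can be removed while its RNA is still made.

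OCT4 was removed in 2 systems, both described as kept in N2B27 medium with PD03, Chiron and mLIF. For its qRT-PCR and western blot course of CreER depletion, however, the study changed the medium to serum with LIF when 4-OHT was added. Whether the CreER RNA libraries were made that way is not stated in the sources used here. O4AID ESCs (strain 129SV, genotype Oct4-/- with the transgenes TetOFF Oct4, CAG Oct4AID and CAG Tir1) were kept in doxycycline so that the TetOFF wild-type transgene stayed silent, and the constitutive CAG promoter drove both the OCT4 fusion with an auxin-inducible degron (AID) and the rice ubiquitin ligase subunit Tir1. They received 500 µM of the auxin IAA for 0, 1.5, 6, 10 or 24 h, with 1 library at each time, so that differences in this system have no replicate check. CreER ESCs (mixed 129SV and C57BL/6 strain, genotype Oct4 Fl/-, CAG CreER) received 500 nM 4-OHT, the ligand that lets CreER enter the nucleus and cut out the floxed allele, for 0, 12, 18, 24 or 36 h with 2 libraries at each time. The labels do not say whether the 2 libraries came from separate cultures, so p-values measure the spread between these samples only.

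The libraries were of unequal depth, with 40.5 to 48.7 M (mega) counted reads each in O4AID and 21.7 to 30.8 M in CreER. *Pou5f1* RNA fell in CreER from 10714 and 10564 normalized counts at 0 h to 3687 and 4113 at 36 h, whereas in O4AID, where auxin acts on the protein, it stood at 95.3% of its 0 h level after 6 h. All 8 ESC markers listed were at 50 or more in untreated O4AID cells. The summed level of 12 trophectoderm markers, none of which was at 0 in an untreated library, was 5296 at 0 h and 6561 at 24 h of auxin, and in CreER it went from between 11633 and 12071 at 0 h to between 23441 and 24966 at 36 h. *Cyp1a1*, a target of the aryl hydrocarbon receptor, went in O4AID from 23.0 to 2422 normalized counts within 6 h of IAA. The study gave IAA to ESCs in which eGFP, not OCT4, was fused to AID. From qRT-PCR of selected genes it reported that IAA did not itself cause the loss of pluripotency gene expression. No library of cells given IAA without the OCT4 degron fusion was analysed here, so the part of IAA itself in the falls below was not tested. In bulk RNA, fewer cells expressing a gene and less RNA per cell cannot be told apart.

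Promoters of 3 genes are shown for the POU-binding letters they do or do not hold. The 93 genes with a promoter in the RefSeq table (GRCm38.p6, 250 bases before to 50 after the start) were searched on both strands for the octamer ATGCAAAT that POU factors bind, for a composite SOX-OCT sequence (TTGT and ATGCAAA with 1 base between them, which overlaps the octamer) and for the sequence bound by ESRRB (TCAAGGTCA). The SOX-OCT sequence was in 0 of 93, against 0.0415% of 9634 expressed genes, and that of ESRRB in 0 of 93, against 0.332%. At such low shares these absences say little. The octamer was found in 2 of 93 (2.15%), *Zfp296* and *Pnpla3*, against 1.62% of the expressed genes and 1.97% of all 27025 promoters. The 250 bases upstream of these 2 genes are printed with the octamer, which reads ATTTGCAT on the gene's strand, in capitals, followed by *Foxd3*, the gene with the greatest fall of the 149 in CreER cells, in which none of the 3 sequences was found. All are on the plus strand of GRCm38.p6.
Zfp296, chr7:19577037-19577286: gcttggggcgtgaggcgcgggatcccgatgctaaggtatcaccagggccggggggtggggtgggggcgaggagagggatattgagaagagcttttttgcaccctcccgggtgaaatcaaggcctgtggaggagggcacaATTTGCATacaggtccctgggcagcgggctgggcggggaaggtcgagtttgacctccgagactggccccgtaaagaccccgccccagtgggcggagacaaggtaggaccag
Pnpla3, chr15:84167566-84167815: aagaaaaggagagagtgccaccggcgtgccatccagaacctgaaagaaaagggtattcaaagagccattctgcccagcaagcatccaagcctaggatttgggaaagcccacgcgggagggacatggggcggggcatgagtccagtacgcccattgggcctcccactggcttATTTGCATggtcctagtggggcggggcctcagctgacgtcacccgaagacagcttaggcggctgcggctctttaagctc
Foxd3, chr4:99656049-99656298: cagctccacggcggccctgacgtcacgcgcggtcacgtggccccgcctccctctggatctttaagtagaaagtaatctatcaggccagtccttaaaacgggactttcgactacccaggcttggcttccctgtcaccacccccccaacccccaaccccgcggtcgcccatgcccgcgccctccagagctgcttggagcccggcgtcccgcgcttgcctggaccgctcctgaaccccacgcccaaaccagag
The octamer begins 111 bases before the start of *Zfp296* and 79 bases before that of *Pnpla3*. A match of this kind describes the letters of a short window and does not show binding, and distal enhancers were not searched.

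By annotation, 116 of the 149 genes were protein coding (77.9%, against 92.4% of genes at 50 or more), 20 were long non-coding RNA genes or unclassified transcripts (13.4% against 3.62%) and 13 were pseudogenes (8.72% against 3.64%). Many had few reads: 75 lay between 50 and 200 normalized counts at 0 h, where they made up 3.00% of all genes, while 29 lay above 1000, where they made up 0.482%. The median gene had 285 reads at 0 h and 98 at 6 h, and for 74 genes the 95% interval of the 6 h level, which covers counting error only, lay wholly below 50% of 0 h. The 2 replicates of each CreER time point, treated or untreated, were compared with each other, each direction apart. Of genes at 50 or more in 1 replicate, 0.0145% to 0.131% were at most 0.5 of that in the other. These replicates may not be separate cultures. With 1 library at each time in O4AID, the spread between O4AID cultures was not measured. Just inside the threshold stood *Gm2974* and the protocadherin gene *Pcdh19* at 49.93% and 49.94% of 0 h, and just outside it stood the kinase gene *Sgk1* at 50.07% and *Gm6397* at 50.08%.

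The fall was already under way at 1.5 h and deepened to 24 h. As a percent of 0 h, the median of the 149 genes was 81.8, 41.2, 33.3 and 24.1 at 1.5, 6, 10 and 24 h, whereas the median of all 12744 genes stayed between 98.6% and 100.1%. At 1.5 h, 66 genes (44.3%) were at most 80% of 0 h, which 4.41% of all genes were, and 7 were at most 50%, which 0.173% were. These shares use the same 0 h library as the rule. Set against the 1.5 h library, which the rule did not use, 93 of 149 (62.4%) were at most 0.5 of it at 10 h and 116 (77.9%) at 24 h. Of the 127 that had 50 or more at 1.5 h, 83 (65.4%) and 102 (80.3%) were. Over all 12743 genes at that level at 1.5 h, the shares were 1.42% and 4.69%. Relative to 0 h, 116 genes were at most 0.5 at 10 h (all genes 1.99%), 121 at 24 h (all genes 5.23%) and 107 at both, while 19 were above 0.5 at both. Of the 82 genes that still had 50 or more at 10 h, 19 (23.2%) were at most 0.5 of that by 24 h (all genes 2.36%), and none doubled (all genes 1.85%). A single gene, *Btn1a1*, stood above its 0 h level at 24 h.

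**Figure D1:**
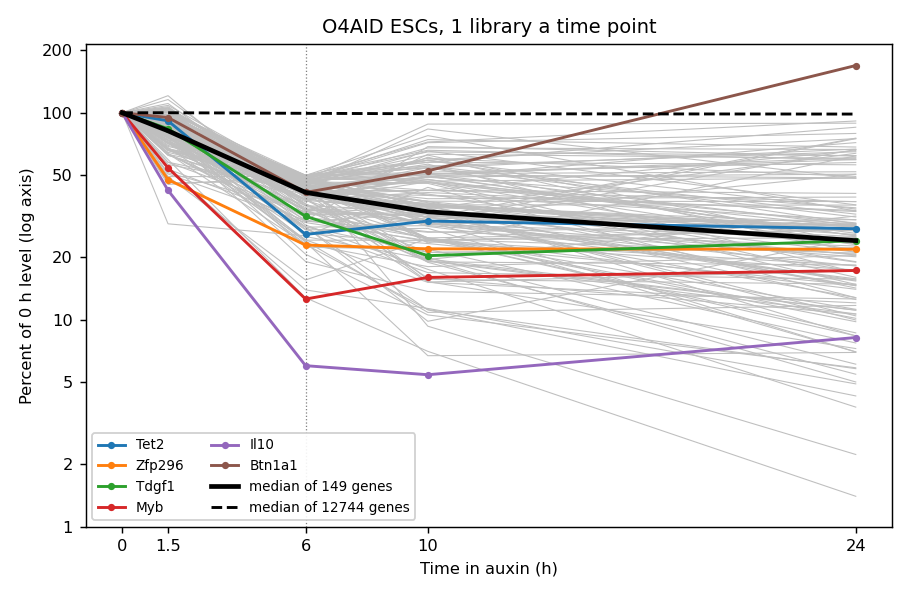
Level of each of the 149 genes in O4AID ESCs as a percent of its 0 h level (log axis) against hours in auxin, 1 library a time point. Grey lines are single genes, coloured lines 6 named genes, the thick black line the median of the 149 genes (41.2% at 6 h, 24.1% at 24 h) and the dashed line the median of all 12744 genes, which stays near 100%. The dotted line marks 6 h, the time used to choose the genes.

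The regulators of transcription and chromatin, 19 genes, held several genes known from the pluripotency network. *Zfp296*, a zinc finger gene of ESCs and germ cells, was among the quickest, at 845, 401, 194, 186 and 185 normalized counts at 0, 1.5, 6, 10 and 24 h of auxin. It reached 47.5% (95% interval 43.0 to 52.6) of 0 h at 1.5 h and changed little after 6 h. In CreER its replicate values were 1409 and 1181, 1274 and 1150.3, 1062 and 1042, 910.2 and 812 and 757 and 783 at 0, 12, 18, 24 and 36 h of 4-OHT, so that both libraries at 24 h and 36 h lay below both at 0 h, with a log2 fold change at 36 h of -0.73 ± 0.08 (SE; adjusted p = 8.06e-08).

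*Tet2*, which encodes an enzyme that oxidizes 5-methylcytosine, took a different course, with 23357, 21347, 6037, 7003 and 6432 normalized counts over the auxin times. The 1.5 h level was still 91.4% of 0 h and the 6 h level 25.8%, and the later libraries lay slightly above the 6 h library. In CreER it went from 5735 and 5612 at 0 h to 5196 and 5457, 4423 and 4459.9, 3539 and 3655 and 2901 and 2823 at the 4 later times. The replicates of these times did not overlap with 0 h, and the 36 h change was -0.97 ± 0.04 (SE; adjusted p = 8.82e-16). The starting level in CreER was about that which O4AID cells kept at 6 h.

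*Phc1*, a subunit of Polycomb repressive complex 1, read 9914, 8758, 3105, 2643 and 2252 over the auxin times. *L1td1*, which encodes an RNA-binding protein derived from a retrotransposon, read 7686, 5496, 2008, 1795 and 1131. At 6 h these were 31.3% and 26.1% of 0 h. In CreER *Phc1* went from 13592 and 12464 at 0 h to 7332 and 7346 at 24 h and 5393 and 5318 at 36 h, a log2 change of -1.26 ± 0.04 (SE; adjusted p = 2.50e-18). *L1td1* went from 21592 and 22082 through 11297 and 11356 to 8734 and 7353, a log2 change of -1.42 ± 0.06 (SE; adjusted p = 1.22e-11). The libraries of 24 h and 36 h lay below both untreated libraries for either gene.

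The transcription factor genes *Foxd3* and *Gbx2* were at 62.3% and 57.7% of 0 h at 1.5 h in O4AID and were lower at 18, 24 and 36 h in CreER. *Foxd3*, needed to keep the epiblast, had 256, 159, 102, 92.6 and 69.6 normalized counts over the auxin times. The *Foxd3* replicates in CreER were 459.8 and 414, 295 and 303, 188 and 212, 132 and 162 and 129.8 and 135. They were already separate from 0 h at 12 h (log2 change -0.55 ± 0.10 (SE; adjusted p = 0.0080), not called in every fit with a library left out). They were lowest at 36 h (-1.70 ± 0.12 (SE; adjusted p = 1.02e-11)), the greatest fall of all 131 genes tested. *Gbx2*, a homeobox gene that promotes self-renewal downstream of LIF, was at 313, 180.4, 131, 169.9 and 98.1 in O4AID, with a 10 h library above the 6 h library. Its CreER values were 468 and 497, 406 and 474, 401 and 325, 289.8 and 265 and 176 and 168, and the change at 36 h was -1.47 ± 0.12 (SE; adjusted p = 1.29e-10).

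*Myb*, a proto-oncogene known for its part in blood progenitors, had the second-lowest share at 6 h of the 149 genes. Its values in auxin were 101, 54.5, 12.7, 16.1 and 17.4, which put it at 12.6% (95% interval 7.56 to 21.0) of 0 h. In CreER, where it started higher, it was at 339 and 358, 254 and 276, 219.9 and 243, 135 and 153 and 107 and 118, and the change at 36 h was -1.62 ± 0.13 (SE; adjusted p = 6.04e-11). The homeobox gene *Nkx1-2* went on falling throughout, at 149, 88.4, 19.0, 10.5 and 2.09, and its 24 h library held 3 reads, 1.40% (95% interval 0.474 to 4.16) of 0 h. With 11.7 and 9.91 in untreated CreER it was too low there to be tested. *Neurod1*, a neurogenic factor whose gene overlaps *Cerkl*, read 55.1, 50.8, 15.8, 9.66 and 2.09 in auxin and also ended at 3 reads, and in CreER it was lower at 36 h, with a log2 change of -0.64 ± 0.14 (SE; adjusted p = 6.40e-04) though not called at 24 h (adjusted p = 0.60).

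Smaller falls were shared by *Zfp57*, which protects imprinted regions from demethylation, *Bicral*, a subunit gene of a BAF chromatin remodelling complex, *Fbrsl1* and *Zfp982*. In CreER at 36 h their log2 changes were -0.66, -0.72, -0.33 and -0.58 and all 4 passed the test (adjusted p between 2.14e-11 and 0.0028), *Fbrsl1* not without replicate 1 of 0 h or of 36 h (adjusted p up to 0.068). The 2 exceptions in this group were *Cdx1* and *Bach2*. *Cdx1*, a homeobox gene induced by WNT signaling, was at 3293, 2833, 1532, 1176 and 959.6 in O4AID but at 36.5 and 42.9 in untreated CreER and at 70.7 and 78.5 at 36 h, where it was higher by 0.91 ± 0.23 (SE; adjusted p = 0.0027). *Bach2*, a transcriptional repressor gene of lymphocytes, was at 511, 474, 216, 179 and 87.7 in O4AID and at 84.7 and 81.5, 94.3 and 107, 108 and 100.2, 129.7 and 119 and 169.6 and 141 in CreER, higher at 24 h by 0.60 ± 0.16 (SE; adjusted p = 0.0081) and at 36 h by 0.93 ± 0.16 (SE; adjusted p = 3.71e-05). The 24 h call was lost without replicate 2 of 0 h or replicate 1 of 24 h (adjusted p up to 0.095) and the 36 h call in no alternative. Across the 19 genes, 15 were lower and 2 higher in CreER at 36 h, 1 was not called and 1 was too low to test. Over all 18969 genes tested, 17.2% were lower and 19.4% higher at 36 h, the shares against which the counts of the other groups are to be read.

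**Figure D2:**
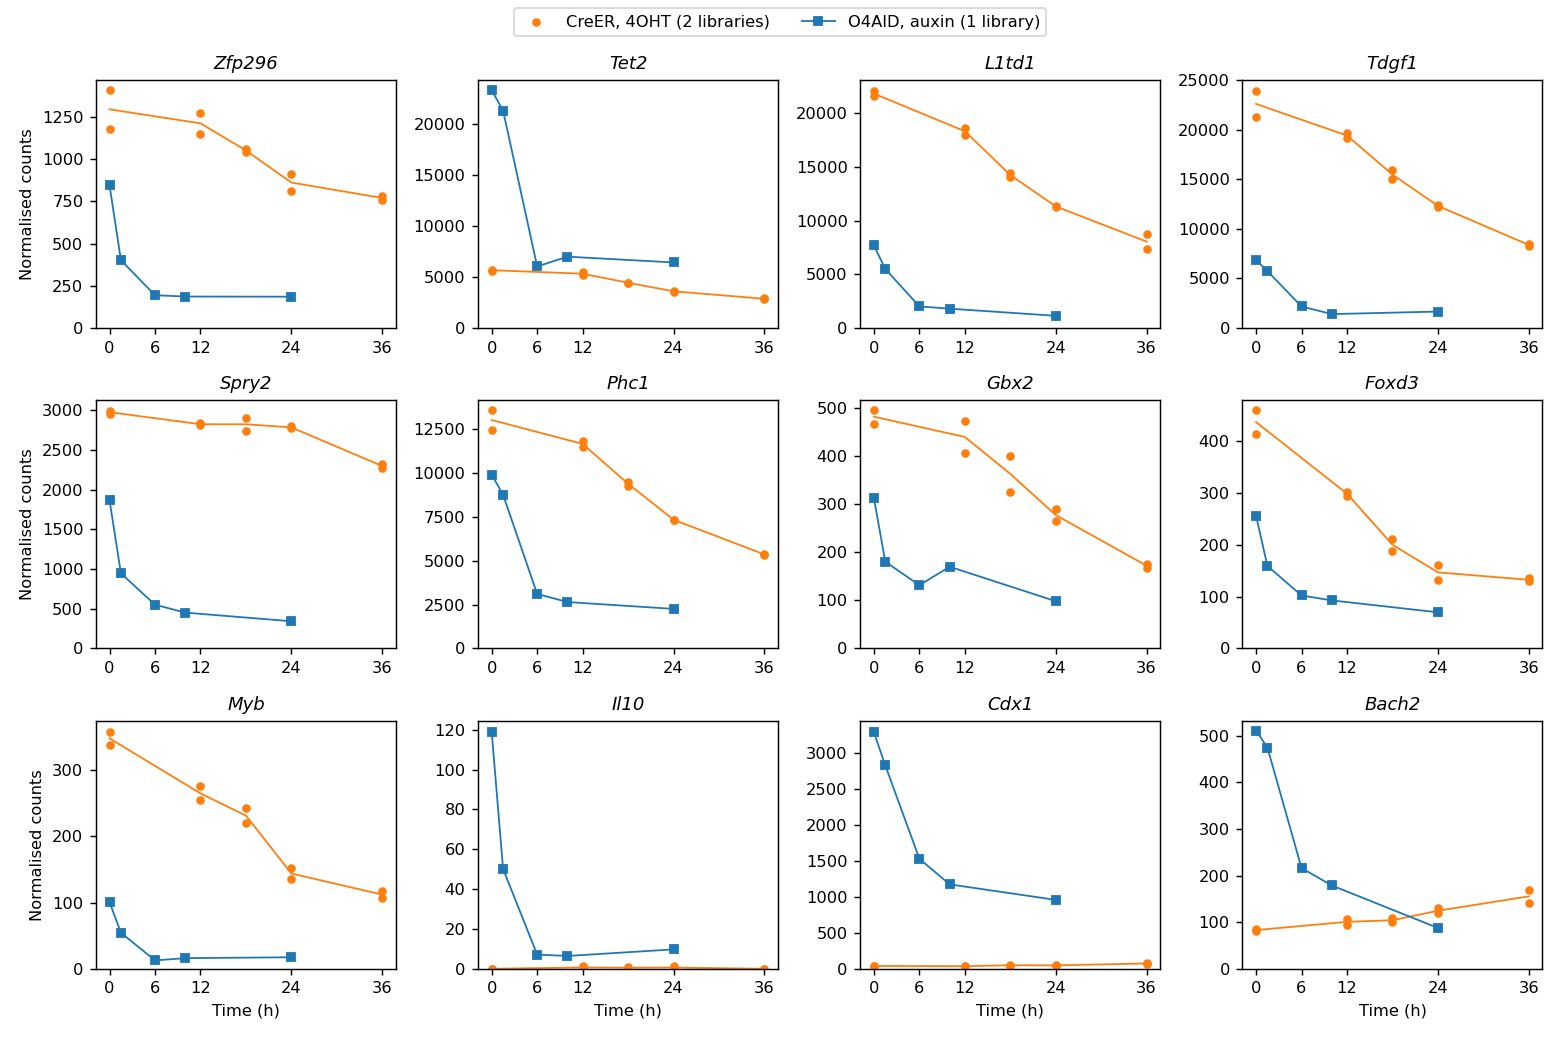
Normalized counts of 12 of the genes in every library, against hours of auxin (O4AID, blue squares, 1 library a time) or of 4-OHT (CreER, orange points, 2 libraries a time, with a line through their mean). Each vertical axis starts at 0. In 9 panels both systems fall, *Il10* is near 0 in CreER throughout, and *Cdx1* and *Bach2* fall in O4AID and rise in CreER.

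Among the 28 signaling genes, were ligands, receptors and antagonists of the Nodal, activin and WNT pathways. *Tdgf1* encodes Cripto, a co-receptor through which Nodal signals, and stood at 6856, 5740.3, 2168, 1399 and 1653 normalized counts in auxin. Its CreER values were 21316 and 23945, 19155 and 19716, 15033 and 15956, 12247 and 12409 and 8490.3 and 8282. The log2 change was called from 12 h (-0.22 ± 0.05 (SE; adjusted p = 0.020), not in every fit with a library left out) and reached -1.41 ± 0.05 (SE; adjusted p = 2.05e-18) at 36 h. The processed pseudogene *Tdgf1-ps1* followed the same course, 304, 243, 85.5, 64.4 and 67.5 in auxin and -1.35 at 36 h in CreER, and reads of the 2 copies may be shared between them. *Inhbb*, the activin beta B subunit, was at 520.1, 267, 173, 129 and 52.9 in auxin, already at 51.4% of 0 h by 1.5 h, and in CreER it was called only at 36 h (log2 change -0.44 ± 0.08 (SE; adjusted p = 4.44e-05)). *Fst*, the activin antagonist follistatin, went from 138 to 49.9 by 6 h and was not called in CreER (-0.24 ± 0.24 (SE; adjusted p = 0.49)).

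The WNT receptor gene *Fzd5* read 3509, 2339, 1196, 1105 and 1014 over the auxin times. In CreER its replicates were 1889.9 and 1833, 1468 and 1532, 1312 and 1212, 1133 and 1087 and 940.4 and 910.1. It was called lower at every time from 12 h (at 12 h not in every fit with a library left out), with a log2 change of -0.99 ± 0.06 (SE; adjusted p = 4.77e-13) at 36 h. *Sfrp1*, a secreted WNT antagonist, was at 1331, 1127, 644, 466 and 374 in auxin, and its CreER change at 36 h was -1.16 ± 0.09 (SE; adjusted p = 4.81e-11). Both genes had their lowest values in the last library of either course.

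Of 17 genes on a list of feedback inhibitors and target genes of FGF and ERK signaling, 2 were among the 149. The median of the 13 listed genes with 50 or more at 0 h was 78.7% of 0 h at 6 h of auxin. *Spry2*, whose product blocks receptor tyrosine kinase signaling, had 1866, 945, 550.0, 450.1 and 342 normalized counts in auxin, 50.6% of 0 h by 1.5 h. In CreER it stayed at 2833 and 2814 at 12 h and 2770.2 and 2797 at 24 h against 2957 and 2994 at 0 h, and was lower only at 36 h, at 2278 and 2316 (-0.36 ± 0.05 (SE; adjusted p = 8.00e-07)). *Dusp6*, an ERK phosphatase gene, went from 242 to 112 in O4AID by 6 h, but in CreER, where it started at 4306 and 4383, it read 4019.7 and 4256 at 36 h and was not called (-0.05 ± 0.05 (SE; adjusted p = 0.40)). PD03 inhibits the ERK pathway, and it is not certain that both systems had it during treatment. The part of the medium in these levels and courses was not tested. *Rasgrp1*, an activator of RAS, and *Eras*, a RAS gene of ESCs, were at 35.6% and 46.1% of 0 h at 6 h of auxin and were lower at 36 h in CreER, with log2 changes of -1.37 ± 0.19 (SE; adjusted p = 1.32e-06) and -0.40 ± 0.08 (SE; adjusted p = 1.69e-04).

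*Il10*, an anti-inflammatory cytokine gene, had the lowest share at 6 h of all 149 genes. Its auxin values were 119, 50.1, 7.12, 6.44 and 9.74 normalized counts, that is 6.00% (95% interval 3.11 to 11.6) of 0 h at 6 h, from 170 reads to 9. Untreated CreER cells had 0 reads in either library, so its course there cannot be given. *Cd200*, an immune inhibitory ligand gene, was likewise 24.3% of 0 h at 6 h in O4AID and was not called in CreER (-0.27 ± 0.30 (SE; adjusted p = 0.52)). The axon guidance genes *Epha4* and *Ntn1*, at 43.7% and 43.0% of 0 h at 6 h in O4AID, were both lower in CreER at 24 h (adjusted p = 0.0032 and 0.012, the latter up to 0.12 without replicate 2 of 0 h or replicate 1 of 24 h) and back at 0.08 and 0.16 on the log2 scale at 36 h, not called. *Ffar3*, a receptor for short-chain fatty acids, was at 625, 307, 308, 217 and 52.2 in O4AID and at 5.21 and 8.81, 7.42 and 13.4, 12.6 and 13.5, 11.5 and 8.71 and 23.1 and 15.7 in CreER, where it was higher at 36 h by 1.46 ± 0.49 (SE; adjusted p = 0.018). That call was lost without replicate 1 of 0 h or of 36 h (adjusted p up to 0.21). In all, 12 of the 28 signaling genes were lower at 36 h, 1 was higher, 14 were not called and 1 was not tested.

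The 11 genes of the cytoskeleton, adhesion and membrane shape were led by *Cobl*, an actin nucleator gene, with 5597, 5007, 1677, 1482 and 1621 normalized counts in auxin. Its CreER replicates read 964 and 972, 719.6 and 667, 501 and 457, 381 and 365 and 313 and 292. The fall was called from 12 h (-0.48 ± 0.07 (SE; adjusted p = 0.0010), not in every fit with a library left out) to 36 h (-1.65 ± 0.08 (SE; adjusted p = 6.01e-15)). *Myo10*, an unconventional myosin of filopodia, was at 15839.8, 12651, 6063, 6524 and 5281 in auxin and fell much less in CreER (-0.33 ± 0.05 (SE; adjusted p = 1.50e-05)). *Gpa33*, an epithelial surface antigen gene, and *Mtss1*, whose product bends membranes, were lower in CreER at 36 h, with log2 changes of -0.94 ± 0.10 (SE; adjusted p = 2.88e-08) and -0.65 ± 0.06 (SE; adjusted p = 8.37e-10). In O4AID *Mtss1* went from 750.2 at 6 h to 1015 at 24 h, whereas *Gpa33* went on down from 1030.4 to 762. Of the 11, 7 were lower in CreER at 36 h and none higher, and *Cldn18*, a claudin gene, had 0 reads in both untreated CreER libraries.

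Of 11 enzyme genes, 6 were lower in CreER at 36 h and none higher. *Enpp3*, an ecto-nucleotidase gene, was at 198, 200.3, 49.9, 38.6 and 62.6 in auxin and at 3212 and 3189.8 in untreated CreER against 1594 and 1466 at 36 h (-1.04 ± 0.05 (SE; adjusted p = 3.68e-15)). *Fut9*, the fucosyltransferase that makes the SSEA-1 surface epitope of mouse ESCs, lay just under the threshold at 6 h (49.9% of 0 h) and changed by -1.27 ± 0.10 (SE; adjusted p = 1.36e-10) in CreER. *Nmnat2*, an NAD synthesis gene, went on falling in auxin, at 1883, 1787, 915, 464 and 163. *Pnpla3*, a lipase gene and one of the pair with an octamer in the promoter, was at 692, 589, 339, 330.1 and 159 in auxin and was called in CreER at 36 h (-0.53 ± 0.17 (SE; adjusted p = 0.018)) but not earlier, and not without replicate 1 of 0 h or replicate 2 of 36 h (adjusted p up to 0.12). *Cyp2b23*, a cytochrome P450 gene, was at 20.7% of 0 h at 6 h and at 5.86% at 24 h.

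Among 9 transporter and channel genes, 4 were lower in CreER at 36 h. The nucleoside transporter gene *Slc28a1* was at 653, 639, 276, 184 and 103 in auxin, hardly moved at 1.5 h, and its CreER values were 711 and 716, 606 and 577, 528 and 479.8, 344 and 377 and 236 and 257 (-1.52 ± 0.09 (SE; adjusted p = 2.55e-13) at 36 h). *Slc9a2*, a sodium-proton exchanger gene, had 501 normalized counts in untreated O4AID and 0 reads in both untreated CreER libraries. Of 7 secreted or matrix genes 1 was lower, *Thbs3*, a thrombospondin, and 3 were too low to be tested. The neighbouring serpin genes *Serpina3h* and *Serpina3i* were at 13.9% and 15.6% of 0 h at 6 h of auxin. They are members of a multigene family with near-identical copies, so their separate counts are uncertain.

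The 20 non-coding transcripts included the gene with the most reads of the 149. *Gm43041*, an unclassified transcript, was at 38618, 32731, 18183, 14394 and 9088 normalized counts in auxin and *Platr15*, a pluripotency-associated long non-coding RNA, at 20005, 16556, 8534, 5957 and 2561. Both went down at every step. In CreER the untreated replicates were far lower, 1194 and 1429 and 208 and 294, and the changes at 36 h were -0.79 ± 0.07 (SE; adjusted p = 1.49e-09) and -0.37 ± 0.14 (SE; adjusted p = 0.041), the second of which was lost without replicate 2 of 0 h or either replicate of 36 h (adjusted p up to 0.72). *Platr11* and *Platr7*, of the same named series, were lower, with log2 changes of -1.16 ± 0.17 (SE; adjusted p = 2.50e-06) and -1.31 ± 0.19 (SE; adjusted p = 5.47e-06), whereas *Platr13* and *Platr28* were not called (-0.13 and -0.08; adjusted p = 0.31 and 0.77). *Vax2os*, an antisense transcript at 329.5, 224, 79.9, 79.7 and 90.5 in auxin, fell from 18.2 and 19.8 to 7.71 and 4.71 normalized counts in CreER (-1.55 ± 0.51 (SE; adjusted p = 0.018)), a call that was lost without replicate 2 of 0 h or of 36 h (adjusted p up to 0.13). Of the 20, 10 were lower in CreER at 36 h and none was higher.

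Reads of the 13 pseudogenes cannot be separated with certainty from those of their parent genes. *Rps10-ps2* and *Ybx1-ps2*, copies of genes that every cell expresses, had 282 and 59.3 normalized counts in untreated O4AID against 8756 and 7812 and 2693 and 2092 in untreated CreER. At 36 h *Rps10-ps2* was not called (-0.00 ± 0.05 (SE; adjusted p = 0.98)). *Kis2*, a processed transcript, had the lowest share at 1.5 h (29.1% (95% interval 20.8 to 40.7) of 0 h), followed by *Il10*, *Gm11991*, *Ybx1-ps2* and *Zfp296*. Of these 5, *Zfp296* alone had more than 200 normalized counts at 0 h.

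At 24 h 4 of the 149 were at least double their 6 h level, near the share of all genes (3.01%), and the 6 h library is one the rule used. *Btn1a1*, a butyrophilin gene, was at 69.1, 65.5, 28.5, 36.2 and 117 in auxin, at 169% (95% interval 132 to 217) of 0 h in the 24 h library. The next largest returns from 6 h to 24 h were those of *Vmn2r1* (from 13.5 to 39.0), *Meltf* (from 24.5 to 52.9), *Thbs3* (from 16.6 to 34.1) and the amino acid transporter gene *Slc43a1* (from 188 to 358), all still below 0 h. Apart from *Slc43a1*, these genes had at most 117 normalized counts in any auxin library. At the other end, *1700016D06Rik*, *Nkx1-2*, *Gm28625*, *Neurod1* and *Rnf112* had between 0.0473 and 0.138 of their 6 h level at 24 h.

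Whether the same genes fall when OCT4 is lost through gene deletion was asked in the CreER libraries, whose values the rule does not use, though earlier results of these data were known when the genes were chosen. Of the 149 genes, 131 passed the filter on low counts and 18 did not. At 12, 18, 24 and 36 h, 5, 33, 45 and 66 of the 149 were lower at an adjusted p under 0.05, where the shares over all 18969 genes tested were 0.137%, 3.79%, 10.6% and 17.2%. The numbers higher were 0, 0, 2 and 3, where the shares over all genes were 0.258%, 4.73%, 11.0% and 19.4%. At 36 h the 66 made up 44.3% of the 149. When no filter was applied, so that all 149 were fitted, 67 were lower and 4 higher at 36 h. The median log2 fold change over all 149 in that fit was -0.09, -0.19, -0.20 and -0.37, whereas that of all 18969 genes in the filtered fit was 0.01 at 36 h. At 36 h 26 genes were lower by at least 2-fold, and 43 genes were lower at both 24 h and 36 h. For neither count was the share over all genes taken, so both are descriptions only. Of the 66 calls, 44 were also made under every other fit and with each library left out in turn, 22 were lost in at least 1 of these, and none changed sign. The 5 genes called lower at 12 h included *Foxd3*, *Cobl*, *Fzd5* and *Tdgf1*, named here after their values were seen, and each of the 5 was lost in at least 1 fit that left out a library (adjusted p up to 0.47). Over the same times the summed trophectoderm markers rose as given above, and their part in these falls was not tested.

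**Figure D3:**
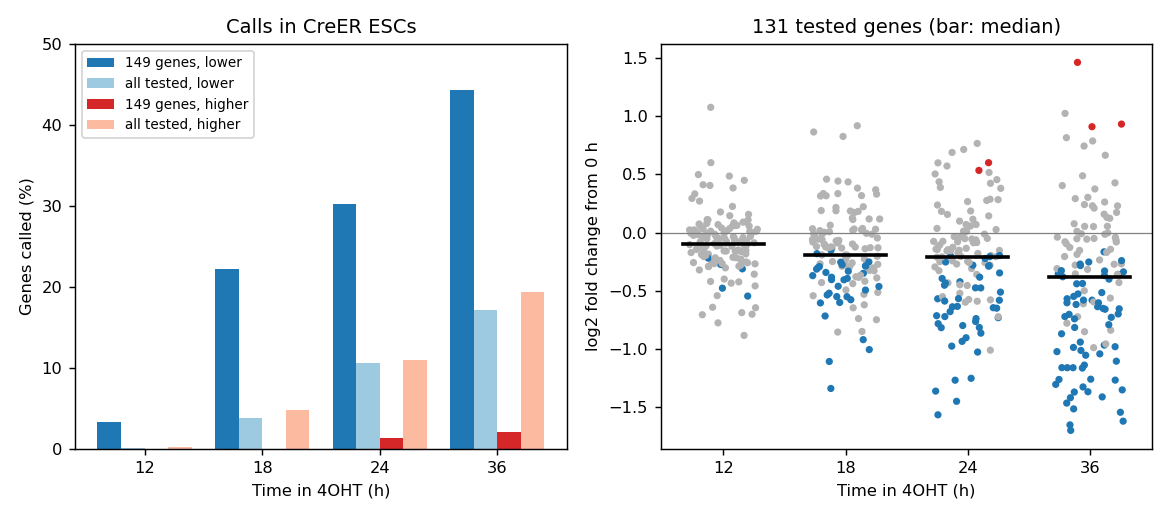
Left, percent of the 149 genes and of all 18969 tested genes called lower or higher than 0 h (adjusted p under 0.05) at each time in 4-OHT, with bars starting at 0. Right, log2 fold change of the 131 tested genes, each a point (blue lower, red higher, grey not called), with the median as a bar. Blue points reach -1.70 at 36 h and 3 points are red.

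The 2 untreated lines did not start alike. Of the 149 genes, 82 (55.0%) were at most 0.5 as high in untreated CreER as in untreated O4AID, which 23.7% of all genes were, and 27 (18.1%) were at least double, which 10.8% were. The rule used the untreated O4AID level, so these counts carry no test. In 33 genes the CreER level was at most 0.1 of the O4AID level, and in 8, *Il10*, *Slc9a2*, *Cldn18*, *Serpina3h*, *Gm28625*, *Mroh4*, *Gm15462* and *1700016D06Rik*, it was 3 reads or fewer in each library. Shares over all genes were not taken for either count. The calls at 36 h are given by the ratio of the CreER to the O4AID level as a description. The rule used the O4AID value of this ratio, and genes with few CreER reads are less readily called. Lower were 21 of the 27 genes with at least double the O4AID level, 26 of 40 within 2-fold, and 19 of the 82 with at most 0.5 of it, of which 64 could be tested and 3 were higher. Since strain, genotype, culture history and possibly the medium differ between the lines together, they cannot be told apart as sources of the starting difference.

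**Figure D4:**
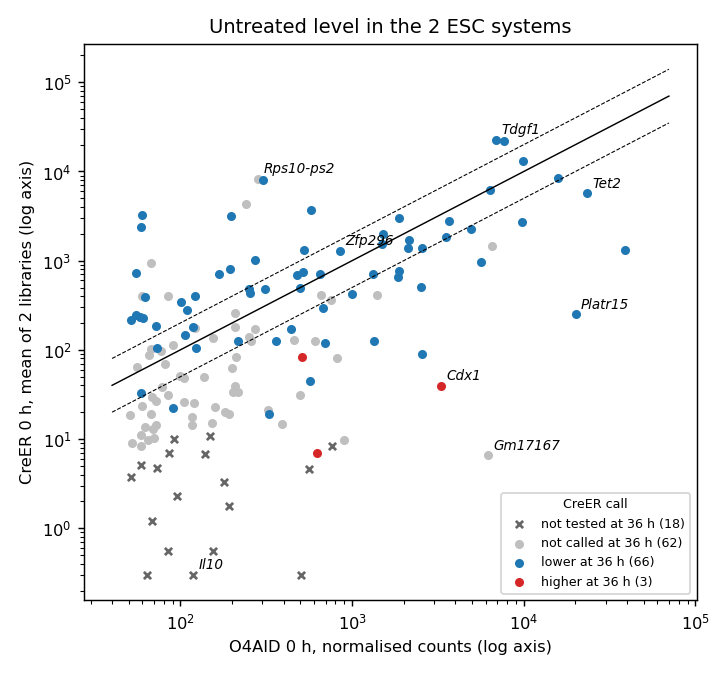
Untreated level of the 149 genes in CreER ESCs (mean of 2 libraries) against O4AID ESCs (1 library), in normalized counts on log axes, with the line of equality and dashed lines at 2-fold. Colours give the CreER call at 36 h (66 lower, 3 higher, 62 not called, 18 not tested as crosses), and means below 0.3 are drawn at 0.3. Blue points lie mostly along and above the line, crosses at the bottom.

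Group by group, the share lower in CreER at 36 h ran from 15 of 19 for transcription and chromatin to 4 of 13 for pseudogenes and 1 of 7 for secreted and matrix genes. In O4AID the groups differed little at 6 h, by construction, with medians of 33.8% to 42.2% of 0 h, and at 24 h the medians ran from 14.6% for the secreted and matrix genes to 31.3% for the 32 other protein-coding genes. The groups were drawn up with the values in view, so no test was made between them.

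**Figure D5:**
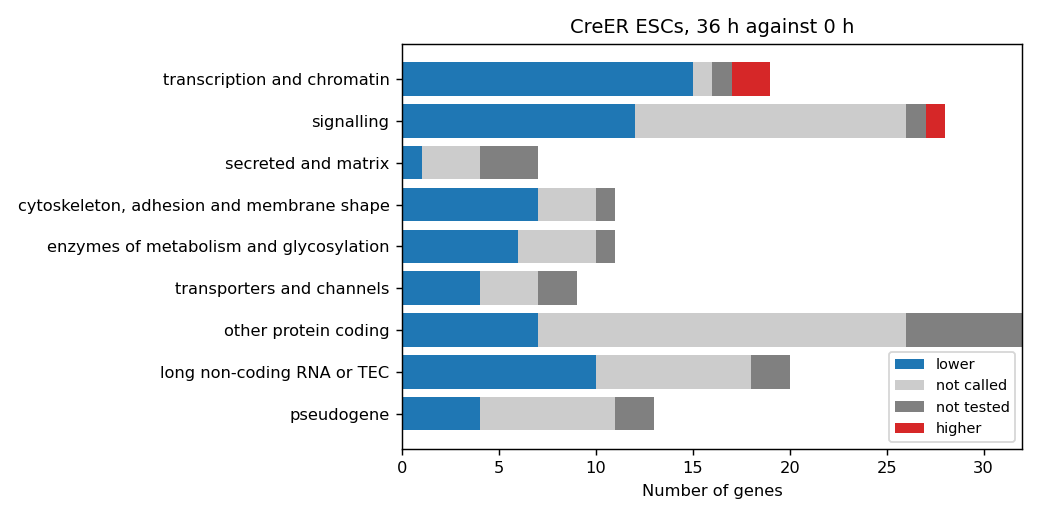
Number of genes in each group of roles that were lower, not called, not tested or higher in CreER ESCs at 36 h against 0 h, with bars starting at 0. Transcription and chromatin has 15 of 19 lower, and *Serpina3h* is counted both with the secreted genes and with the pseudogenes.

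Beyond these genes, a list of 28 further pluripotency-associated genes was followed in full. Of them 8 were among the 149, *Zfp296*, *Tet2*, *L1td1*, *Phc1*, *Tdgf1*, *Gbx2* and *Zfp57* included, and the median of all 28 was 65.0% of 0 h at 6 h and 35.9% at 24 h of auxin. In CreER, 3, 15, 22 and 25 of the 28 were lower at 12, 18, 24 and 36 h and at most 1 was higher. The lists were drawn up with earlier results of these data known. The rule was met by 1.26% of all genes at 50 or more, and only listed genes at that level could meet it. Among the 149 were also 2 of 13 such FGF and ERK feedback genes (17 listed), 2 of 13 Nodal and TGF-beta genes (15 listed) and 1 of 9 WNT targets (15 listed). None of 4 BMP and ID genes (9 listed), 11 immediate-early genes (15 listed) or 10 genes of the LIF and STAT3 pathway (12 listed) was among them. With so few genes and a share of 1.26%, these absences say little. In CreER at 36 h, 9 of the 17 FGF and ERK feedback genes were lower and 2 higher, 6 of the 14 Nodal and TGF-beta genes tested were lower and 5 higher, and 3 of the 15 WNT targets were lower and 4 higher, where 17.2% of all genes tested were lower and 19.4% higher, so that the last of these lists lay near the shares of all genes.

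Some of the genes lie side by side. With a limit of 100 kb between neighbours, 12 pairs were found that took in 22 of the 149 genes. The shares of all genes with such neighbours, or with the overlaps counted below, were not taken. These counts therefore do not show that the 149 lie closer together than other genes. The longest run, on chromosome 17 (GRCm38), held *H2-M6-ps*, *2410137M14Rik*, *H2-M5* and *Zfp57* between 36969195 and 37010635, and these 4 stood at 38.2%, 45.7%, 37.8% and 43.1% of 0 h at 6 h of auxin. In CreER at 36 h *2410137M14Rik*, *H2-M5* and *Zfp57* were lower (-1.02, -0.70 and -0.66, the first not without replicate 1 of 36 h, adjusted p up to 0.089) and *H2-M6-ps* was not called (-0.21, adjusted p = 0.37). *Platr11* and *2610509F24Rik*, 794 bases apart on chromosome 9, were both lower at 36 h (-1.16 and -1.37). *Dusp27* and *Gpa33*, 2315 bases apart on opposite strands of chromosome 1, were as well (-1.11 and -0.94). Of the 149 genes, 70 overlap another annotated gene, 59 of them one on the opposite strand. Since the strand setting of the counting is not stated, reads of such pairs may not be fully separated.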

How the data were processed

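RNA was measured in 15 libraries of mouse ESCs, 10 of CreER and 5 of O4AID, grouped by the sample labels alone. Per the labels and the study's methods, the authors removed ribosomal RNA, made directional libraries read from both ends, trimmed the reads with Trim Galore 0.1.4, aligned them to mm10 with TopHat2 2.1.0 and counted them with featureCounts 1.5.1. Strand and multimapping settings were not given in the sources used here. The deposited per-library files hold raw counts per gene (48709 genes after 92 spike-in entries, at 0 reads, were left out). The deposited TMM table is a normalized signal, which the authors made by scaling the counts. In each library the table's genes with enough reads equalled counts times 1 factor within a relative tolerance of 0.001. All 149 genes also matched that product by absolute difference. Of the 149, 146 were matched by symbol and 3 by an older symbol to GRCm38 gene identifiers.

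Levels are values of that table. Percents of 0 h in O4AID carry 95% Wilson intervals of the read shares, which cover counting error only. For CreER, edgeR 4.0.16 (R 4.3.3) was run on the counts with its quasi-likelihood F-test, TMM factors, filterByExpr, robust dispersion and a prior count of 0.125. All 10 CreER libraries were fitted together, each time was contrasted with 0 h, and Benjamini-Hochberg adjustment ran over 18969 genes. The procedure was tested on simulated data. Alternatives were other scalings, no filter, DESeq2 1.42.0, a replicate block, fewer libraries, stricter members and leaving out each library.

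The genes and lists were chosen with earlier results of these data known. Genes were named by list membership, by the 12 lowest shares at 6 h, 5 highest levels at 0 h, 6 lowest and up to 6 highest CreER changes called at 36 h (3 were called higher), 5 highest and 5 lowest ratios of 24 h to 6 h, and 5 lowest shares at 1.5 h. Role groups, and the other genes named within them, were chosen after values were seen. Some genes that this rule names are not reported here.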

Additional observations from a re-analysis of the deposited data

Results flagged for a closer look

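Genes are given here whose level at 24 h of auxin in O4AID was below 0 h while both CreER replicates at 24 h lay above both at 0 h. Of the 149 genes, 18 (12.1%) did so. Of all 12744 genes at 50 or more, 19.8% moved opposite ways in the systems. That share also counts genes above 0 h in O4AID and below it in CreER, so it cannot be set against the 12.1%. The difference between the systems was not tested, since O4AID has 1 library a time.

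*Bach2* stood at 17.2% of 0 h in O4AID and at a log2 fold change of 0.60 in CreER (edgeR adjusted p = 0.0081). *Gm6284*, a pseudogene, stood at 34.3% and 0.54 (adjusted p = 0.0035). These were the 2 of the 18 that passed the test at 24 h. *Cdx1* stood at 29.1% and 0.27 (adjusted p = 0.48). *Meltf* stood at 75.0% and 0.60 (adjusted p = 0.47), from 11.7 and 8.81 normalized counts in untreated CreER. *Gm2974* stood at 59.3% and 0.77 (adjusted p = 0.27). *Thbs3* stood at 61.8% and 0.14 (adjusted p = 0.14), and at 36 h it was lower in CreER (log2 change -0.34 ± 0.07 (SE); adjusted p = 0.00068). Another 9 genes, which the rule for names did not pick, had log2 changes in CreER at 24 h of 0.19, 0.28, 0.28, 0.38, 0.39, 0.50, 0.57, 0.69 and 0.72 (adjusted p between 0.071 and 0.39). The last 3 were too low to be tested, and their mean in CreER at 24 h exceeded that at 0 h by 1.74 normalized counts in *1700016D06Rik*, 2.54 in *Vmn2r1* and 6.75 in the other.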

How the results depend on the processing

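The shares in O4AID moved by less than 1.5 times under every alternative tried. The median ratio of untreated CreER to untreated O4AID was 0.418, and 0.444 with total-count scaling. In CreER the share of the 149 genes called lower at 24 h (30.2%) and 36 h (44.3%) moved by less than 1.5 times under every alternative. At 12 h it was 3.36%, 8.05% with no filter, 7.35% among genes at most 0.4 of 0 h at 6 h, 6.76% among genes with a 6 h interval below 50% (chosen after seeing the data), and 0.671% to 4.70% without 1 library. At 18 h it was 22.1%, and 14.1% to 22.8% without 1 library. The median log2 change at 12 h was -0.09, -0.13 with total-count scaling, -0.16 among genes at most 0.4, and -0.10 to -0.069 without 1 library. At 18 h it was -0.19, -0.25 among genes at most 0.4, and -0.18 to -0.14 without 1 library. The 24 h median of -0.21 was held against a spread of 0.0035 between replicates, and moved to -0.22 with RLE scaling, -0.19 with total-count scaling, -0.20 with no filter, -0.20 with a replicate block, -0.22 with only the 4 libraries compared, -0.28 among genes at most 0.4, -0.28 among genes with at least 100 at 0 h, and -0.24 to -0.22 without 1 library. The 36 h median of -0.38 moved to -0.46 with total-count scaling, -0.43 with only the 4 libraries compared, -0.64 among genes at most 0.4, -0.58 among genes with at least 100, and -0.44 to -0.36 without 1 library. The cause of these shifts was not tested. Of all 127 alternative values 98 stayed within their limits, 29 did not, and none changed sign.

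Replicate numbers are shared across CreER times but did not pair the libraries: of 10 pairs of times 0 had same-numbered deviations correlated above 0.1 (r from -0.016 to 0.052). With a replicate block the fit called 46 of the 149 genes lower at 24 h, against 45 without it.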

Other observations

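Chromosome 19 held 0 of the 149 genes and 416 of the genes at 50 or more, whereas chromosome 1 held 15 of the 149 and 749 of the genes at 50 or more. The processed pseudogene *Gm6284*, whose reads cannot be separated with certainty from those of its parent gene and which is named after its values were seen, was the other gene called higher in CreER at 24 h beside *Bach2*, at 190.4 and 202 normalized counts against 138 and 134 at 0 h (log2 change 0.54, edgeR adjusted p = 0.0035), and was at 139 and 121 at 36 h. In O4AID it was at 154, 157, 72.8, 91.0 and 52.9 normalized counts at 0, 1.5, 6, 10 and 24 h. *Tsix*, the antisense transcript of the X-inactivation centre, was at 47.5% of 0 h at 6 h of auxin and 79.5% at 24 h, from 74 reads at 0 h, and was lower in CreER at 36 h (log2 change -0.52, adjusted p = 0.0036), a call that was lost without replicate 2 of 0 h or replicate 1 of 36 h (adjusted p up to 0.090).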
